A study of Mus musculus with 6 samples.

Results

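This section describes 9 mouse genes of arginine, itaconate, tryptophan and polyamine metabolism (Arg1, Arg2, Nos2, Acod1, Il4i1, Ido1, Ass1, Odc1 and Slc7a2) in the myeloid cells of breast cancer tumours. They were chosen by name, and all 9 were found among the 32285 genes of the count matrices. Female C57BL/6J mice aged 10 to 12 weeks had been injected with 1 brain-metastatic breast cancer line, either in the brain (BrM) or in the fat pad of the mammary gland (MFP). CD45+ leukocytes that excluded DAPI and took up the nuclear stain RedDot1 were sorted, and 16000 cells were loaded per library for single-cell 3′ RNA sequencing. Each site had 3 libraries, named here BrM 1 to 3 and MFP 1 to 3. All hosts were of 1 strain and carried 1 tumour line, and the labels give no host allele, drug or untreated tissue. The line was injected, so the brain tumours did not arise by spread from a primary tumour. Whether each library stands for its own animal is not stated in the labels. The spread that enters the tests is therefore that of libraries and may be technical.

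Arginine is the shared substrate of opposing enzymes. Nitric oxide synthase 2 (Nos2) turns it into nitric oxide and citrulline, while arginase 1 (Arg1, cytosolic) and arginase 2 (Arg2, mitochondrial) turn it into ornithine and urea. Ornithine decarboxylase (Odc1) commits ornithine to polyamines, argininosuccinate synthase (Ass1) starts the recycling of citrulline to arginine, and the cationic amino acid transporter Slc7a2 brings arginine into the cell. Acod1 makes itaconate from the Krebs cycle intermediate cis-aconitate, and Il4i1 (an amino acid oxidase) and Ido1 consume aromatic amino acids and tryptophan. Arg1 is classically linked to IL-4-stimulated macrophages, and Nos2 and Acod1 to macrophages stimulated with interferon-gamma and lipopolysaccharide.

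In the GRCm38 annotation each of the 9 is a protein-coding gene. Arg1 lies on the minus strand of chromosome 10 from 24915221 to 24927484, Arg2 on chromosome 12 from 79130777 to 79156301, and Nos2 on chromosome 11 from 78920787 to 78960254. Acod1 occupies chromosome 14 from 103046977 to 103056573, Ass1 chromosome 2 from 31470207 to 31520672, and Odc1 chromosome 12 from 17544794 to 17551505. Ido1 (chromosome 8, 24584136 to 24597009, minus strand) and Slc7a2 (chromosome 8, 40862396 to 40922308) share a chromosome. Il4i1 (chromosome 7, 44816387 to 44840809) overlaps Nup62 on its own strand, so reads from their shared stretch may not be assignable. Those not named as minus lie on the plus strand.

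The upstream sequences of Acod1 and Ass1 are shown because neutrophils were the class with the highest Acod1 and the lowest Ass1. Each is RefSeq sequence of GRCm38.p6 on the plus strand, read 5′ to 3′ and ending at the last base before the annotated gene. Capitals mark matches to the NF-kB pattern (GGG, then 5 free bases, then CC) on either strand.

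Acod1, chr14:103046762-103046976: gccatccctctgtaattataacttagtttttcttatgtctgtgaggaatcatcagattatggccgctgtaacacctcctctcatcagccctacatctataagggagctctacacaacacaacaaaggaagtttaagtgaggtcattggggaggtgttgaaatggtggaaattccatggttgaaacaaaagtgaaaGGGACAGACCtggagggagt

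Ass1, chr2:31470020-31470206: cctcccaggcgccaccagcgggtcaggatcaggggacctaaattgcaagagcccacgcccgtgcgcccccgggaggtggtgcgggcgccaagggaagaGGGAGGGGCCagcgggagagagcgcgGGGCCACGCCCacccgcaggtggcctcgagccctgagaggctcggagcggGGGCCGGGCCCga

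In the full window of 300 bases (250 before and 50 after the RefSeq start), Acod1 held 1 match to the NF-kB pattern, Ass1 6, Il4i1 2 and Odc1 1, some of them overlapping each other. Of all 32851 promoters of that length, 50.8% held it. The hypoxia element core ACGTG matched once in Acod1 and at 2 overlapping positions in Ass1, and 19.6% of all promoters held it. None of these 4 windows held the patterns TTCNNNGAA (GAS, in 8.30% of promoters), of the ISRE (GAAA, 2 free bases, GAAA; 3.44%), of the STAT6 element (TTC, 4 free bases, GAA; 6.95%) or TGANTCA (AP-1, 7.81%). Both strands were searched. A match describes letters, not a bound site, and no match says only that these letters are not in the window. The RefSeq table held 4 of the 9 genes.

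Of 49518 barcodes, 43728 cells were kept, and 11190 of them fell into 8 myeloid classes. Cells were assigned one by one from marker panels that held none of the 9 genes. Each class expressed all of its own 10 to 12 markers, which follows in part from that assignment. The myeloid share differed greatly between libraries of the same site. It was 48.5% and 44.2% of cells in BrM 2 and BrM 3 and 63.2% in MFP 3, against 3.00%, 2.14% and 0.819% in BrM 1, MFP 1 and MFP 2. The latter also had the lower UMI totals. The 3 libraries rich in myeloid cells are called higher-total libraries and the others lower-total libraries below. A library entered a class with at least 20 cells. Macrophages (46, 1860 and 1734 BrM cells; 48, 24 and 2063 MFP cells) and monocytes (79, 216 and 377; 72, 31 and 462) could therefore be compared with 3 libraries per site. Neutrophils and mature dendritic cells (DCs) had BrM 2 and BrM 3 against MFP 3 alone, and type 1 and type 2 conventional DCs (cDC1, cDC2) and plasmacytoid DCs had all BrM libraries against MFP 3 alone. In those classes the site cannot be told apart from that library. Microglia, at 402 and 290 cells, came from BrM 2 and BrM 3 only. Pairs of libraries shared between 8 and 31 cell barcodes.

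Levels are UMIs of a gene per 1000000 UMIs of the class (CPM). The 9 genes were divided among the classes rather than expressed together. Neutrophils had the highest Acod1, Arg2 and Nos2, mature DCs the highest Il4i1, and macrophages and monocytes most of the Arg1 and Slc7a2. Ass1 and Odc1 were present in every class, and Ido1 was almost undetected.

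Acod1 stood at 2683 and 3648 CPM in neutrophils of BrM 2 and BrM 3 and at 2755 CPM in MFP 3, a mean of 3029 ± 537 (SD, n = 3 libraries). The next class was microglia, at 151 and 122 CPM, followed by monocytes at 61.1 ± 26.2 CPM (n = 6), macrophages at 19.1 ± 14.9 (n = 6) and each DC class below 12 CPM in every library. The 3 neutrophil libraries lay above every library of the other classes, and both microglia libraries above every monocyte library, while monocytes and macrophages overlapped.

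Arg2 was also highest in neutrophils, at 461 and 539 CPM in BrM 2 and BrM 3 and 473 CPM in MFP 3. Monocytes came next, with 51.9 ± 31.9 CPM (n = 6) and a range from 20.4 to 101 CPM, and did not reach the neutrophil values. Macrophages, at 11.0 ± 9.96 CPM, overlapped the lower monocyte libraries and the mature DCs. No Arg2 UMI was found in 2843837 UMIs of plasmacytoid DCs, which allows a level of up to 1.05 CPM by counting error.

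Nos2 followed the same order at its top. It stood at 40.6 and 44.6 CPM in neutrophils of BrM 2 and BrM 3 and at 99.6 CPM in MFP 3, with macrophages next at 6.40 ± 4.69 CPM (n = 6). The lowest neutrophil library was above the highest macrophage library, 11.9 CPM. Macrophage and monocyte libraries overlapped, and cDC1, cDC2 and plasmacytoid DCs held no Nos2 UMI in any library, with limits of 0.457, 0.619 and 1.05 CPM.

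Il4i1, which mature DCs are known to express, stood at 404 and 471 CPM in mature DCs of BrM 2 and BrM 3 and at 559 CPM in MFP 3. The next class, cDC2, had 33.0 ± 8.87 CPM (n = 4) and did not overlap with them. Plasmacytoid DCs had 17.8 ± 11.0 CPM, and the remaining classes stayed below 14 CPM in every library. Ido1 reached at most 5.62 CPM, from 2 UMIs in the mature DCs of MFP 3. It had 0 UMIs in macrophages and monocytes, which at their 70660092 and 10830233 UMIs allows up to 0.0425 and 0.277 CPM.

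Arg1 had its highest class means in macrophages (28.4 ± 25.4 CPM, n = 6) and monocytes (22.6 ± 25.3 CPM, n = 6). The SD was about as large as the mean in both, and the libraries ranged from 0 to 71.9 and from 0 to 53.6 CPM. The other 6 classes were below 4 CPM in every library. Slc7a2 was highest in macrophages, at 17.1 ± 7.35 CPM, and overlapped with monocytes, at 5.65 ± 8.66 CPM. In mature DCs no Slc7a2 UMI was found, which allows up to 0.895 CPM.

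Ass1 ranged from 149 to 304 CPM in monocytes and from 104 to 243 CPM in macrophages. Mature DCs had the highest mean, 290 ± 20.5 CPM (n = 3), and overlapped with monocytes. Neutrophils stood apart at the other end, with 18.4 and 7.75 CPM in BrM 2 and BrM 3 and 6.90 CPM in MFP 3, below both microglia libraries (26.0 and 41.4 CPM). Odc1 class means ran from 87.2 CPM in monocytes to 188 CPM in microglia, and every class overlapped with its neighbour in that order. Both microglia libraries (175 and 201 CPM) fell within the range of cDC1 (66.7 to 222 CPM). They lay above every library of the other classes, of which mature DCs reached the most, 170 CPM.

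**Figure D1:**
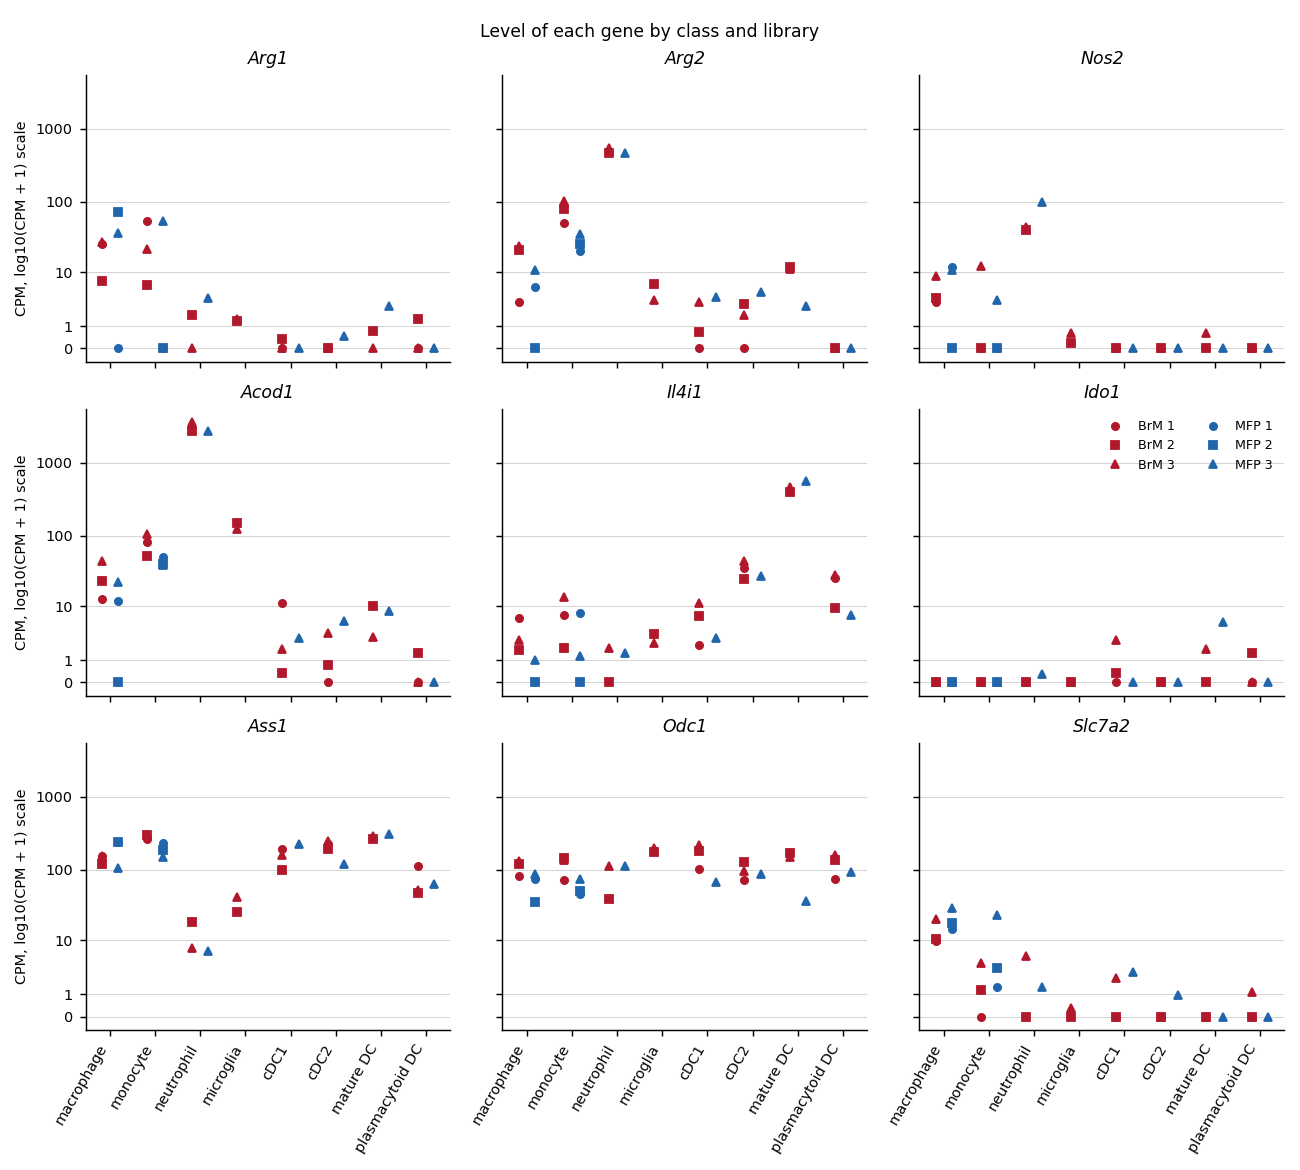
Level of each gene (CPM on a log10(CPM + 1) scale) in 8 myeloid classes, with 1 point per library of at least 20 cells (red, BrM; blue, MFP). Acod1, Arg2 and Nos2 were highest in the 3 neutrophil libraries and Il4i1 in the 3 mature DC libraries, while Odc1 overlapped between neighbouring classes.

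Each class was tested against macrophages by edgeR's quasi-likelihood test with the library as a block, over all 10241 genes that passed the filter on low counts. Of the 9 genes, 8 passed, and Ido1 did not. Differences between classes were common among all genes, so the counts are read against the share of all genes called. In neutrophils 3 of the 8 were higher than in macrophages and 3 lower, at 64.5% of all genes called. Acod1 was 7.28 ± 0.35 (log2, SE) higher, Arg2 5.32 ± 0.30 and Nos2 3.57 ± 0.39, whereas Ass1 was lower (log2 difference -3.31). In monocytes 4 of the 8 were higher and 1 lower, at 40.0% of all genes called. The 4 were Arg2 (log2 difference 1.97 ± 0.27), Il4i1 (1.46), Acod1 (1.30 ± 0.29) and Ass1 (0.64), and the lower one was Slc7a2 (log2 difference -1.35 ± 0.33, adjusted p = 0.0015).

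Microglia had 1 of the 8 higher than in macrophages and 5 lower, at 24.6% of all genes called. Acod1 was the higher one (log2 difference 2.35 ± 0.34), and the 5 lower ones were Arg1, Arg2, Nos2, Ass1 and Slc7a2. Both microglia libraries come from brain tumours, and the library block compares them with macrophages of the same tumours. Mature DCs had 2 higher, Il4i1 (log2 difference 8.15 ± 0.34) and Ass1 (1.16 ± 0.26), and 4 lower, at 50.8%. In cDC1 (38.7%), cDC2 (32.9%) and plasmacytoid DCs (46.1%) the single higher gene was Il4i1, with 5, 5 and 6 lower. Odc1 passed the test in none of the 7 classes. Its smallest adjusted p was 0.279, in microglia.

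The first site comparison asks whether the 9 genes differed between monocytes of brain tumours and monocytes of fat pad tumours. Of the 9, 5 passed the filter on low counts. Arg2 rose in BrM and none of the others passed, while 1.56% of all 7118 genes tested were called in either direction. The median log2 fold change of the 5 was 0.99, against -0.02 over all genes tested. The other 4 genes (Nos2, Il4i1, Ido1 and Slc7a2) were too low for the test.

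Arg2 in monocytes stood at 50.9, 78.0 and 101 CPM in BrM (replicates 1 to 3 in order, here and below) against 20.4, 25.5 and 35.4 CPM in MFP. Every BrM library lay above every MFP library. The means were 76.7 ± 25.2 and 27.1 ± 7.63 CPM (SD, n = 3 each), and edgeR gave a log2 fold change of 1.46 ± 0.27 (SE) with adjusted p = 0.0245. Without BrM 2 the adjusted p was 0.10, without BrM 3 it was 0.162, and the fold changes were 1.47 and 1.22 on the log2 scale. Within the higher-total libraries the log2 fold change was 1.47 (adjusted p = 0.136), and within the lower-total libraries it was 1.24 (adjusted p = 0.153). The exact permutation test of 3 libraries against 3 cannot go below p = 0.1, which is what it gave here.

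Arg2 is high in neutrophils, so neutrophil markers were looked at in the monocytes. The summed level of the 12 neutrophil markers was 166 to 273 CPM in BrM monocytes and 102 to 229 CPM in MFP monocytes, against 40740 to 55080 CPM in neutrophils. Between 2 and 5 of the 12 markers were at 0 in BrM monocytes and between 1 and 7 in MFP monocytes. BrM 1, whose monocytes had 50.9 CPM of Arg2, had 0 neutrophil-gated cells. The part of these markers in the difference was not tested.

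Acod1 in monocytes stood at 81.2, 52.2 and 104 CPM in BrM against 50.1, 40.0 and 38.6 CPM in MFP. The groups did not overlap, but the lowest BrM library was only just above the highest MFP library, and the log2 fold change of 0.99 ± 0.26 did not pass the test (adjusted p = 0.0766). Ass1 was 268, 296 and 304 CPM in BrM against 233, 186 and 149 CPM in MFP, again without overlap, with a log2 fold change of 0.69 ± 0.19 and adjusted p = 0.0868. Levels that did not overlap with BrM higher were found for 7.22% of all genes tested. Odc1 was 71.5, 146 and 135 CPM in BrM against 45.4, 50.9 and 74.7 CPM in MFP, so that BrM 1 fell among the MFP libraries (log2 fold change 1.03 ± 0.26, adjusted p = 0.0758). With the library kind (higher or lower total) as a term in the fit, Acod1, Ass1 and Odc1 also passed, with adjusted p of 0.0254, 0.0214 and 0.0092.

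Arg1 in monocytes did not separate the sites. It was 53.3, 6.45 and 21.9 CPM in BrM against 0, 0 and 53.6 CPM in MFP, with adjusted p = 0.91. Both MFP libraries at 0 are lower-total libraries, whose depth allows up to 4.70 and 10.9 CPM. In MFP 3, 1 monocyte-gated cell held 112 of the 282 Arg1 UMIs, and without that cell the level was 32.6 CPM. That cell belonged to cluster 14, a cluster of deep cells led by Retnla, Fn1 and Ear2. It supplied 60 of the 462 MFP 3 monocytes, with 156 CPM of Arg1 and 69.4 CPM of Slc7a2. Among ILC2-gated lymphoid cells, outside these classes, 3 of the 9 were tested and Arg1 passed, lower in BrM (4.81% of genes called). That call was lost with doublets kept, with clusters in place of gates, and without BrM 3 or MFP 1. Without the cells of cluster 14 the log2 fold change of Arg1 turned from -0.30 to 1.07, and that of Arg2 in monocytes was 1.19 with adjusted p = 0.0524.

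**Figure D2:**
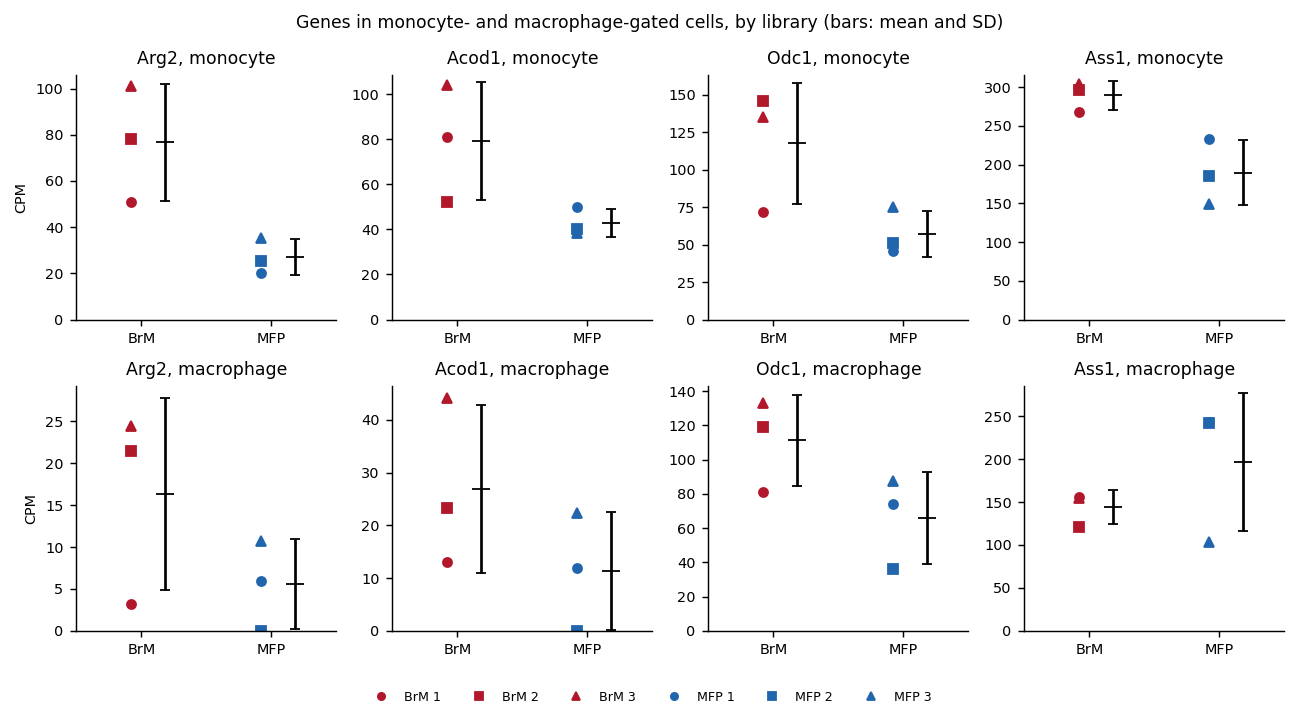
CPM of Arg2, Acod1, Odc1 and Ass1 in monocyte- and macrophage-gated cells of each library, with the mean and SD of 3 libraries per site. In monocytes, Arg2 was 50.9 to 101 CPM in BrM and 20.4 to 35.4 CPM in MFP; in macrophages the sites overlapped for the 4 genes shown.

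In macrophages 8 of the 9 genes were tested, 1 rose and 1 fell in BrM, and 4.68% of all 10917 genes were called (511 genes). DESeq2 called 1 of 18883 genes, and edgeR called 0 genes without BrM 2, BrM 3 or MFP 3, at an unadjusted p below 0.05 for 83, 70 and 279 genes. The 8 had a median log2 fold change of 0.19, against -0.05 over all genes. Arg2 was the one that rose: it was 3.25, 21.4 and 24.4 CPM in BrM against 5.93, 0 and 10.7 CPM in MFP. The observed values overlapped, as BrM 1, whose value is 1 UMI among 307433, fell among the MFP libraries. MFP 2 had 0 UMIs among 111316, which by counting error (3 UMIs) allows a level above every BrM value. The fitted log2 fold change was 1.20 ± 0.22 (SE) with adjusted p = 0.00108 by edgeR, which weights libraries by their depth. In the higher-total libraries alone (BrM 2 and BrM 3 against MFP 3) it was 1.26 (adjusted p = 4e-04). DESeq2 gave 1.24 with an adjusted p of 1, and with fewer than 2 higher-total BrM libraries, or without MFP 3, Arg2 was below the filter and was not tested. With the replicate block the Arg2 call was lost. The macrophages sat in different clusters at the sites. Cluster 23, where Arg2 stood at 44.2 CPM over all libraries against 8.39 CPM in the large cluster 21, held 528 of 1860 and 531 of 1734 macrophages in BrM 2 and BrM 3 but 112 of 2063 in MFP 3. The part of this make-up in the Arg2 difference was not tested; the levels within clusters are given below.

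Slc7a2, the arginine transporter, was the gene that fell. Its levels were 9.76, 10.4 and 20.5 CPM in BrM against 14.8, 18 and 29.5 CPM in MFP, so that BrM 3 lay above MFP 1 and MFP 2. The log2 fold change was -0.79 ± 0.23 with adjusted p = 0.0432. The call was lost in the higher-total libraries alone (adjusted p = 0.0597), without MFP 2 (0.0941), with doublets kept (0.0532), with clusters in place of gates (0.118), with no filter on low counts (0.264) and in DESeq2 (adjusted p of 1). Without BrM 2, BrM 3 or MFP 3 it was below the filter. The Slc7a2 call was also lost with the replicate block. Slc7a2 was highest in cluster 13, which held 127 of 1860 and 112 of 1734 macrophages in BrM 2 and BrM 3 against 392 of 2063 in MFP 3. In the lower-total libraries cluster 13 held 27 of 46 in BrM 1, 26 of 48 in MFP 1 and 21 of 24 in MFP 2. Its share was thus larger in the lower-total libraries of either site. Within cluster 13 the Slc7a2 level was 39.3 and 92.8 CPM in BrM 2 and BrM 3 against 64.4 CPM in MFP 3, so that BrM 3 lay above MFP 3 there. In cluster 21 it was 11.3 and 23.5 CPM against 26.6 CPM. The part of the cluster make-up in the fall was not tested.

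Arg1 in macrophages was 26.0, 7.39 and 27.8 CPM in BrM against 0, 71.9 and 37.1 CPM in MFP, with values of both sites interleaved (log2 fold change -0.89 ± 0.37, adjusted p = 0.20). Without MFP 1, whose macrophages held 0 Arg1 UMIs (up to 8.89 CPM at their depth), the adjusted p was 0.0034, and without BrM 1 it was 0.0356. Nos2 was 3.25, 3.95 and 8.68 CPM in BrM against 11.9, 0 and 10.7 CPM in MFP (adjusted p = 0.230). Acod1 was 13, 23.2 and 44.2 CPM in BrM against 11.9, 0 and 22.4 CPM in MFP (log2 fold change 0.72 ± 0.25, adjusted p = 0.123). Neither gene separated the sites, and the MFP 2 zeros of both rest on 24 cells and 111316 UMIs.

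Odc1 was 81.3, 119 and 133 CPM in BrM macrophages against 74.1, 35.9 and 87.8 CPM in MFP macrophages (log2 fold change 0.67 ± 0.27, adjusted p = 0.185). It passed in the higher-total libraries alone, at 0.68 ± 0.10 and adjusted p = 0.0025. Ass1 changed direction with the libraries used. It was 156, 122 and 155 CPM in BrM against 243, 243 and 104 CPM in MFP, with a log2 fold change of -0.28 over all libraries (adjusted p = 0.735) and 0.57 in the higher-total ones (adjusted p = 0.0148). Il4i1 in macrophages was 6.50, 1.74 and 2.86 CPM against 0, 0 and 1.05 CPM. The BrM 1 value is 2 UMIs, and the zeros of MFP 1 and MFP 2 allow up to 8.89 and 26.9 CPM, above every BrM value, so a separation of the sites was not detectable at this depth. Observed values apart with BrM higher were found for 4.87% of all genes tested, and the adjusted p was 0.0754.

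The macrophages of the lower-total libraries were few, and their summed level of 10 NK cell markers was 1038, 936 and 1060 CPM in BrM 1, MFP 1 and MFP 2. In BrM 2, BrM 3 and MFP 3 it was 426, 776 and 264 CPM. The part of this difference in the macrophage results was not tested.

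**Figure D3:**
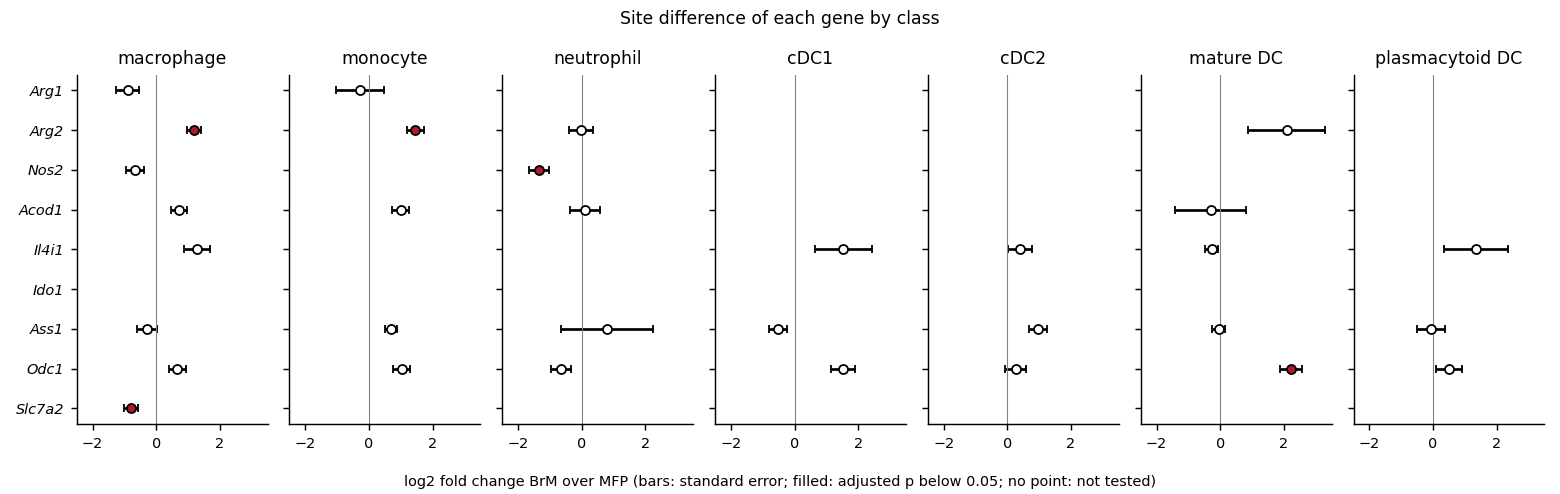
Log2 fold change BrM over MFP with its standard error for each gene that passed the filter on low counts, by class; filled points passed adjusted p below 0.05. Arg2 was filled in macrophages (1.20) and monocytes (1.46), Slc7a2 in macrophages (-0.79), Nos2 in neutrophils (-1.34) and Odc1 in mature DCs (2.22).

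In neutrophils, where Acod1 and Arg2 were highest, neither passed the test between BrM 2 and BrM 3 and the single MFP library. The Acod1 values given above were 2683, 3648 and 2755 CPM (log2 fold change 0.10 ± 0.46, adjusted p = 0.946), and those of Arg2 were 461, 539 and 473 CPM (-0.03 ± 0.37, adjusted p = 0.981). Nos2 fell. It was 40.6 and 44.6 CPM in BrM against 99.6 CPM in MFP 3, a log2 fold change of -1.34 ± 0.32 (adjusted p = 0.00144 by edgeR), while 7.12% of all 5179 genes tested were called. Of the 9 genes 5 were tested, with a median log2 fold change of -0.03 against 0.07 over all genes. DESeq2 gave -1.40 for Nos2 with an adjusted p of 0.814.

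BrM neutrophils were shallower, with median depths of 1620 and 1553 UMIs against 2948 in MFP 3. They also held more macrophage-marker UMIs (3313 and 1769 CPM against 1501 CPM) and more monocyte-marker UMIs (1197 and 1678 against 602 CPM). Of the 12 markers of each panel, at most 2 were at 0 in any neutrophil library. The part of depth and of these markers in the Nos2 difference was not tested.

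The site difference of Arg2 was larger in monocytes than in neutrophils, by 1.58 ± 0.39 on the log2 scale (edgeR interaction of site and class within libraries, adjusted p = 0.0341). That of Odc1 was larger by 1.80 ± 0.45 (adjusted p = 0.0382). Of all 8730 genes 1.83% passed that test. The site difference of Arg2 in macrophages exceeded that in neutrophils by 1.31 ± 0.37, which did not pass (adjusted p = 0.0935, 1.41% of genes called). None of the 8 genes tested passed between monocytes and macrophages (0.493% called). The smallest adjusted p there was 0.166, for Slc7a2, and 3 of the 8 (Ass1, Slc7a2 and Nos2) had an unadjusted p under 0.05. DESeq2 was not run on these contrasts between classes, and they were not refitted without single libraries. Neutrophils entered them only from BrM 2 and BrM 3 against MFP 3, so the neutrophil site difference cannot be told apart from that library.

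Among DCs, 1 gene passed. Odc1 was 170 and 152 CPM in mature DCs of BrM 2 and BrM 3 and 36.5 CPM in those of MFP 3, a log2 fold change of 2.22 ± 0.35 (adjusted p = 1.15e-07). Of all 7937 genes tested, 3.10% were called. The MFP value rests on 13 UMIs of 34 cells. Il4i1, highest of all classes in mature DCs, had 404 and 471 CPM in BrM against 559 CPM in MFP 3 and did not pass (log2 fold change -0.27 ± 0.19, adjusted p = 0.565). In cDC1, 3 of the 9 were tested and none passed, at 0.599% of genes called. Odc1 was 101, 184 and 222 CPM in BrM against 66.7 CPM in MFP 3 there (log2 fold change 1.52 ± 0.39, adjusted p = 0.141). It passed without BrM 1, BrM 2 or BrM 3 in turn (adjusted p = 6.36e-12, 0.021 and 0.0324). In cDC2 (1.72% called) and plasmacytoid DCs (0.339% called) 3 were tested and none passed. Ass1 was 224, 194 and 248 CPM in cDC2 of BrM against 118 CPM in MFP 3 (adjusted p = 0.166), a class in which 28 of the 127 MFP 3 cells belonged to cluster 14.

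To compare shares of cells with a UMI at equal depth, each cell was thinned to 2000 UMIs and shallower cells were left out. Acod1 was detected in 73.0%, 82.5% and 75.9% of thinned neutrophils in BrM 2, BrM 3 and MFP 3. The thinning kept 74 of 292, 40 of 320 and 941 of 1122 neutrophils. In microglia the Acod1 share was 17.2% and 17.1%, and in macrophages 3.67%, 7.15% and 2.95% in BrM 2, BrM 3 and MFP 3. T cells, which should lack Acod1, had 0.142%, 0.628% and 1.14% in those libraries with median depths before thinning of 4444 to 7736 UMIs. The cells kept had medians of 10430 to 13850 UMIs in macrophages and of 2248 to 3113 UMIs in neutrophils. Arg2 was detected in 44.6%, 47.5% and 51.8% of thinned neutrophils, Nos2 in 4.05%, 7.50% and 11.9%, and Il4i1 in 41.7%, 48.0% and 54.8% of mature DCs.

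In monocytes the thinned Arg2 share was 5.26%, 12.0% and 17.3% in BrM against 4.29%, 6.67% and 5.53% in MFP. BrM 1 fell among the MFP libraries at this depth, whereas without thinning the groups did not overlap (means of 30.3% and 17.6%), nor at 1000 UMIs (8.34% and 1.02%). The T cell share was at most 0.285% in any library. Thinned shares did not overlap between sites for Ass1 in monocytes (31.6%, 33.8% and 32.2% against 22.9%, 23.3% and 21.7%) and for Odc1 in monocytes (10.5%, 13.9% and 17.5% against 5.71%, 10.0% and 10.4%). This depended on the depth: at 1000 UMIs both genes overlapped (means of 23.6% and 17.4% for Ass1, 6.85% and 5.80% for Odc1). Without thinning Ass1 did not overlap (64.4% and 43.9%), whereas Odc1 did, with the lower mean in BrM (33.7% and 34.6%). Of all genes tested in monocytes, 5.61% separated in that direction. The exact two-sided permutation p was 0.1 for each, the smallest that 3 against 3 allows, and 0.533 after Benjamini-Hochberg adjustment over 16 comparisons. Il4i1 in macrophages had 2.63%, 0.328% and 0.295% against 0%, 0% and 0.250%, where the zeros rest on few cells, and 4.46% of all genes tested there separated with BrM higher. For Ass1 and Odc1, T cells give no background, since they held them at 43.2 to 96.3 and 302 to 510 CPM.

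**Figure D4:**
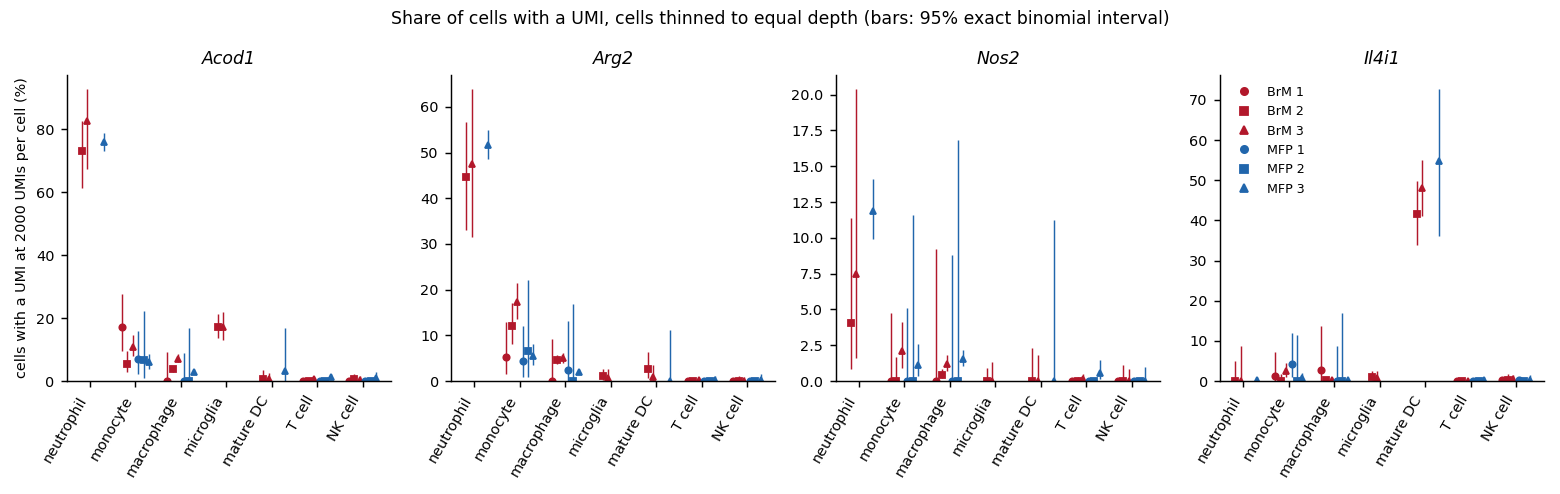
Share of cells with at least 1 UMI of Acod1, Arg2, Nos2 and Il4i1 after thinning each cell to 2000 UMIs, by class and library, with exact binomial 95% intervals that cover counting error only. Acod1 was found in 73.0% to 82.5% of neutrophils and Il4i1 in 41.7% to 54.8% of mature DCs, while T and NK cells lay near 0 for the 4 genes.

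The levels of Arg1 rested on few cells. In MFP 3, 87 of 2063 macrophages held an Arg1 UMI, and 1 macrophage held 383 of the 1098 UMIs. The 3 cells with the most UMIs held over 50% of them, and without the top cell the level was 24.2 instead of 37.1 CPM. In BrM 3 macrophages the corresponding number was 10 cells of 1734, and the top cell held 54 of 515 UMIs; in BrM 2 it was 4 cells of 1860, with 32 of 161 UMIs in the top cell. By contrast, 87 cells were needed for 50% of the Slc7a2 UMIs of MFP 3 macrophages.

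Clusters of macrophages, made with the 9 genes left out of the variable genes, differed in which of the genes they carried; this is a description, with no test. Cluster 23, led by Apoc2, Apoe, Spp1, Gpnmb and Trem2 (genes of lipid-handling macrophages), held most of the Arg1 UMIs of macrophages: 134 of 161 in BrM 2, 441 of 515 in BrM 3 and 848 of 1098 in MFP 3. Its levels were 21.7, 84.3 and 408 CPM, the last from 112 cells that include the cell with 383 UMIs. Arg1 itself was among the leading genes of cluster 23 and Nos2 among those of cluster 13. Cluster 15 was higher in BrM 2, at 38.5 CPM, and cluster 29, led by microglial genes, in BrM 3, at 104 CPM. The large cluster 21, led by Acp5 and Ms4a7, had 0.7, 0.6 and 2.3 CPM in the same libraries. Cluster 13, led by the proteases Mmp12 and Mmp13, had the most Nos2 in each of the 3 libraries, at 58.4, 109 and 46.6 CPM, and the most Slc7a2, at 39.3, 92.8 and 64.4 CPM. In cluster 23 Nos2 was 0.3, 2.5 and 9.6 CPM. Arg2 was 37.2, 36.3 and 24.9 CPM in cluster 13 and 41.0, 51.8 and 36.1 CPM in cluster 23, so it was not divided as Arg1 and Nos2 were. Within clusters 13, 21 and 23, Arg2 was higher in BrM 2 and BrM 3 than in MFP 3. Cluster 22, led by Retnla, Folr2 and Lyve1 and held mainly by MFP 3, had 2.4 CPM of Ass1, against 107 CPM in cluster 21 of that library.

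**Figure D5:**
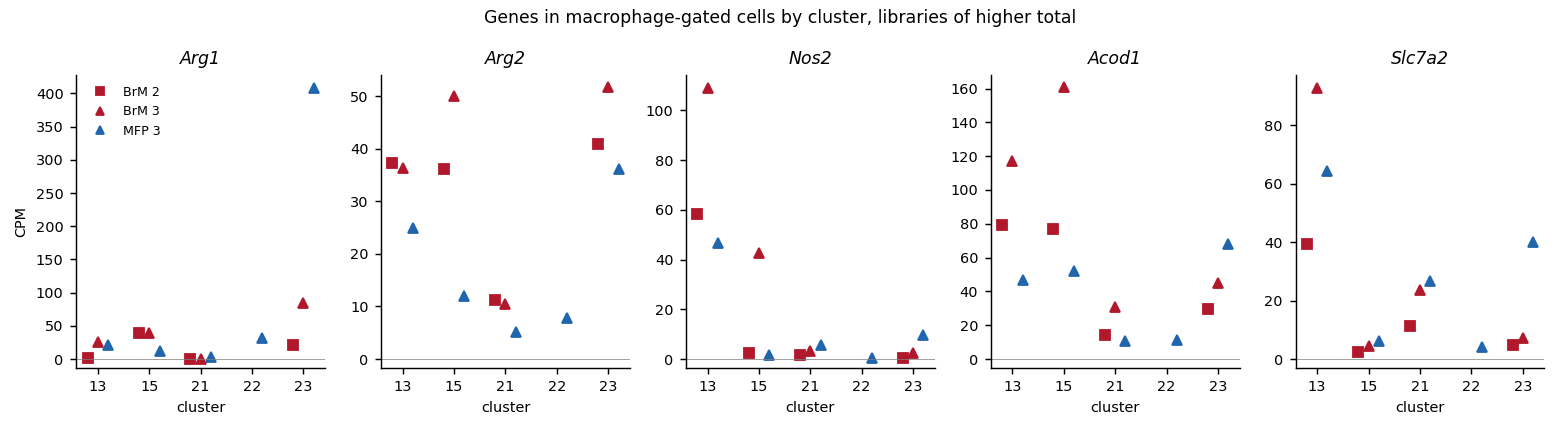
CPM of 5 genes in macrophage-gated cells of BrM 2, BrM 3 and MFP 3, in clusters 13, 15, 21, 22 and 23, with 1 point per library of at least 20 such cells. Arg1 reached 408 CPM in cluster 23 of MFP 3, and Nos2 and Slc7a2 were highest in cluster 13.

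The number of single macrophages with UMIs of both arginine-degrading enzymes was small. Arg1 and Nos2 UMIs were found together in 3 of 1860 cells in BrM 2, 9 of 1734 in BrM 3 and 14 of 2063 in MFP 3. The product of the 2 shares would give 1.11, 3.46 and 5.86 cells. Nos2 and Acod1 were found together in 19, 35 and 40 cells, against 5.78, 12.9 and 16.2. Without thinning, T cells held an Arg1 UMI in 0%, 0.338% and 0.699% of cells of these libraries and a Nos2 UMI in 0.0702%, 0.135% and 0.839%. Deeper cells hold more UMIs of every gene, no test was made, and the part of free RNA and of remaining doublets in the joint cells was not tested. Each macrophage library held more joint cells than that product.

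The genes whose levels across the 32 class-by-library sums were most like those of each of the 9 are given as a description; sums of a library share its cells and depth. Arg2 was most like Slfn4, Fpr2 and Clec4e (Pearson r = 0.96, 0.95 and 0.94), Acod1 most like Csf3r, Hcar2 and Dmxl2 (0.96, 0.94 and 0.94), and Nos2 most like 4930430E12Rik, Fpr1 and Tnfrsf23 (0.93, 0.93 and 0.91). Il4i1 was most like Sema7a, Adam23 and Ccr7 (0.91 each). Slc7a2 was most like Pf4, Mmp12 and Mmp13 (0.85, 0.84 and 0.81), and Arg1 less closely like Ecm1, Nr1h3 and Pf4 (0.73, 0.71 and 0.69). Ass1 was most like Phf11b, Hspa8 and Sh3bgrl (0.89, 0.88 and 0.87), and Odc1 like Hps4, Abraxas2 and Zc3h15 (0.69, 0.68 and 0.62). Ido1 was too low to compare. Csf3r, Ccr7 and Pf4 are in the marker panels that gated neutrophils, mature DCs and macrophages, so their likeness is not independent of the gating.

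The other genes of these pathways were taken from lists. The share of all genes called was 4.68% in macrophages, 1.56% in monocytes, 7.12% in neutrophils, 1.72% in cDC2 and 3.10% in mature DCs. For macrophages each gene named as called below holds in the edgeR fit over all 6 libraries. As given above, DESeq2 called 1 macrophage gene in all (a lower one), and edgeR 0 without BrM 2, BrM 3 or MFP 3. Monocyte calls likewise hold in the fit over all 6 libraries, where edgeR called 111 genes. Leaving out 1 library gave 12 (without BrM 3) to 163 (without MFP 1) monocyte genes, with 14 without BrM 2. DESeq2 called 138 there. Of 20 genes of arginine supply and nitric oxide, 13 were tested in macrophages and none passed, with a median log2 fold change of 0.22 against -0.05 for all genes. In monocytes 11 were tested and 1 rose: Slc3a2, the heavy chain of amino acid transporters, averaged 496 ± 50.3 CPM across BrM libraries against 299 ± 29.8 CPM across MFP libraries (n = 3 each, log2 fold change 0.79, adjusted p = 0.0292). In neutrophils the same gene fell, from 429 CPM in MFP 3 to 220 ± 25.7 CPM (n = 2) in BrM (log2 fold change -1.09, adjusted p = 0.0291). In mature DCs 10 were tested, and Gatm, an enzyme that uses arginine for creatine synthesis, was higher in BrM (log2 fold change 2.53). The MFP side of that comparison is MFP 3 alone, with 34 cells. Of the polyamine and ornithine genes, none of the 18 tested in macrophages, 14 in monocytes or 9 in neutrophils passed. Their medians were 0.05, 0.01 and -0.19, and Sat1 was the most abundant of them in macrophages, at 1074 ± 137 CPM for BrM against 980 ± 90.2 CPM for MFP.

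Of the tryptophan and kynurenine genes, 12 were tested in macrophages, 1 rose and 1 fell. Kynu, which cleaves kynurenines, was 14.1 ± 1.39 CPM for BrM against 8.46 ± 8.92 CPM for MFP (log2 fold change 0.99, adjusted p = 0.0109), and Haao was 11.1 ± 1.70 and 22.6 ± 5.07 CPM (-0.69, adjusted p = 0.0413). None of 11 passed in monocytes. In neutrophils 1 of 2 fell, Tiparp (log2 fold change -2.02). Of the itaconate and citrate genes, 19 were tested in macrophages. The NRF2 targets Gclm (41.5 ± 6.80 against 20.7 ± 2.65 CPM, log2 fold change 0.85, adjusted p = 0.00664) and Slc7a11 (55.2 ± 17.2 against 22.3 ± 16 CPM, 0.88, adjusted p = 0.0158) rose. Clybl, which clears citramalyl-CoA, an itaconate product, fell (log2 fold change -0.84, adjusted p = 0.0432). None of 18 passed in monocytes and none of 14 in neutrophils.

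Of 15 genes linked to IL-4 and STAT6 in macrophages, 11 were tested there, 1 rose and 3 fell. Mrc1, the mannose receptor, was 19.4 ± 8.72 CPM for BrM against 141 ± 110 CPM for MFP (log2 fold change -3.26, adjusted p = 1.22e-05), and Egr2 fell by 1.87 (log2; adjusted p = 1.76e-06). Ear2 fell by 1.61 in the fit (adjusted p = 0.00882) although its unweighted means, 2.17 and 1.89 CPM, were in the opposite order. Cish, a cytokine feedback inhibitor, rose (log2 fold change 1.03, adjusted p = 0.00484). In monocytes 1 of 12 fell, Mrc1 (log2 fold change -3.09, adjusted p = 0.0458). Mrc1, like Retnla below, is a leading gene of clusters 14 and 22. Cluster 14 held 60 of the 462 MFP 3 monocytes, and cluster 22 held 258 of the 2063 MFP 3 macrophages. Without the cells of cluster 14, edgeR called 71 of 7110 monocyte genes, against 111 of 7118 with them. The values of Mrc1 and Retnla in that fit are not given here, and the part of cluster 22 in their falls was not tested. In neutrophils 2 of 10 fell: Retnla had 0 CPM in both BrM libraries and 168 CPM in MFP 3, and Pdcd1lg2 fell by 1.57. In cDC2 4 of 14 fell (Retnla, Mrc1, Ear2 and Egr2), the first 3 being leading genes of cluster 14. The median log2 fold change of the list was 0.03 in macrophages, -0.18 in monocytes, -0.22 in neutrophils and -0.87 in cDC2, against -0.05, -0.02, 0.07 and 0.01 for all genes.

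Of 18 genes linked to interferon-gamma and lipopolysaccharide, 2 rose in macrophages and 4 of the 17 tested rose in monocytes, and none fell in either. In monocytes these were Tlr2 (615 ± 151 against 270 ± 41.2 CPM, log2 fold change 1.23, adjusted p = 0.013), Tnf (178 ± 22.2 against 83.8 ± 29.1 CPM, 1.10, adjusted p = 0.0288), Il1b (1.03, adjusted p = 0.0465) and Nfkbia (0.76, adjusted p = 0.0462). In macrophages they were Il12b (log2 fold change 1.25, adjusted p = 0.00111) and Nfkbia (987 ± 18.9 against 379 ± 366 CPM, 1.32, adjusted p = 0.0408). These counts stand against 4.68% of macrophage and 1.56% of monocyte genes called. The median of the list was 0.38 in macrophages, 0.57 in monocytes and 0.75 in neutrophils, against -0.05, -0.02 and 0.07 for all genes. In neutrophils, of 15 tested, Cxcl9 (1.61) and Irf1 (1.25) rose and Ptgs2 fell (log2 fold change -1.26).

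Of 14 hypoxia genes tested in neutrophils, 8 fell in BrM and none rose, while 369 of 5179 genes were called there, 275 of them lower (DESeq2 called 33). Vegfa was 117 ± 9.45 CPM (n = 2) in BrM and 447 CPM in MFP 3 (log2 fold change -2.04, adjusted p = 7.48e-07), and P4ha1, Ero1l, Pfkfb3, Bnip3 and Egln3 fell by 1.90, 1.99, 1.58, 1.60 and 1.52 on the log2 scale. The median of the list was -1.26, against 0.07 for all genes. The lower depth of each BrM neutrophil library (median 1620 and 1553 against 2948 UMIs) and its higher macrophage-marker (3313 and 1769 against 1501 CPM) and monocyte-marker levels (1197 and 1678 against 602 CPM) moved with this fall, and their part in it was not tested. In macrophages 1 of 16 fell, Ankrd37 (log2 fold change -0.84), and in monocytes none of 13 passed.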

How the data were processed

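Raw UMI counts per gene and barcode were made with Cell Ranger 4.0 on mm10, per the submitters' processing notes. The gene annotation they used is not stated. Matrices as deposited by the authors held 50692794 to 70944735 UMIs per library. Cells needed 500 UMIs, 200 genes and at most 10% mitochondrial UMIs, and the top 7% of Scrublet scores per library were removed as doublets. Classes came from panel scores (minimum 0.5, lead 0.2, at most 1 lymphoid UMI), a rule set after the cells were seen. UMIs were summed per library and class (at least 20 cells) and tested with edgeR 4.0.16 (R 4.3.3; TMM, filterByExpr, quasi-likelihood test, Benjamini-Hochberg, threshold 0.05), with DESeq2 1.42.0 as an alternative. A site with 1 library is assumed to vary like the other. ILC2-gated cells were tested the same way, a comparison added after the data were seen. The fit was tested on simulated data. scanpy 1.11.5 made 32 clusters. Intervals and limits at 0 (3 UMIs) cover counting error only. The 9 genes and the lists were chosen with earlier results of these data known. Named are the 9 genes, the 3 most alike genes of each (Pearson r of log2(CPM + 5), genes at 20 CPM or more in 3 sums), and per list up to 6 genes past the threshold, or else the 3 most abundant. Alternatives changed the tool, filter, block, libraries, classes, doublets and minimum cells.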

Additional observations from a re-analysis of the deposited data

Results flagged for a closer look

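The site difference (BrM over MFP) of 2 genes differed between monocytes and neutrophils by a test of the difference itself. For Odc1 it was 1.805 higher on the log2 scale in monocytes (SE 0.452, adjusted p = 0.0382 by edgeR), and for Arg2 it was 1.578 higher (SE 0.386, adjusted p = 0.0341). Neutrophils of the fat pad came from MFP 3 alone.

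Arg1 was also found outside the myeloid classes. ILC2-gated cells (gated by a marker panel of type 2 innate lymphoid cells) had 95.2 CPM in MFP 1, 35.26 CPM in MFP 2 and 34.58 CPM in MFP 3, against 3.63, 0 and 2.57 CPM in BrM 1 to 3. The MFP values rest on 68, 52 and 8 UMIs and the BrM values on 2, 0 and 1. The edgeR test gave adjusted p = 0.00890 (SE 0.717) for a log2 fold change of -4.53, a size that depends on few UMIs. Of all 5342 genes tested there, 4.81% were called in either direction. The adjusted p was 0.0577 with doublets kept, 0.12 with clusters in place of gates, 0.0545 without BrM 3 and 0.0627 without MFP 1, and DESeq2 gave none. The gated cells sat in different clusters: cluster 25, an ILC2 cluster, held 10 of 73, 5 of 60 and 5 of 63 in BrM 1 to 3 against 82 of 129, 229 of 323 and 4 of 43 in MFP 1 to 3, and the part of this in the difference was not tested.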

How the results depend on the processing

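The number of the 9 genes called between sites moved with the processing, and the cause was not tested. In macrophages (2 called) it was 0 in DESeq2, 1 with no filter on low counts, 0 with the replicate block (adjusted p = 0.177 for Arg2, 1.00 for Slc7a2), 6 with library kind as a term, 3 in the higher-total libraries and with at least 50 cells, 0 in the lower-total libraries, where fewer genes were tested, 1 with clusters in place of gates, and 0 to 6 without each library. In monocytes (1 called) it was 3 in DESeq2, 5 with no filter, 2 with the replicate block, 4 with library kind as a term, 0 in the higher-total libraries, 0 without cluster 14 and 0 to 2 without each library. In neutrophils (1 called) it was 0 in DESeq2. In cDC1 (0 called) it was 1 with no filter, 2 with library kind as a term, in the higher-total libraries and with at least 50 cells, and 1 to 2 without each BrM library. In cDC2 (0 called) it was 1 under these last 3 settings and 0 to 1 without each BrM library. DESeq2 gave no adjusted p for Odc1 in mature DCs.

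Some fold changes reversed, and the cause was not tested. Ass1 in macrophages was 0.17 with library kind as a term, 0.57 in the higher-total libraries and with at least 50 cells, and -0.890 to 0.0453 without each library. Arg1 in monocytes was 0.26 with the replicate block, 7.98 in the lower-total libraries, 2.04 with clusters, 1.07 without cluster 14 and -0.97 to 7.75 without each library. Acod1 in neutrophils was -0.0233 with no filter, and Arg2 there 0.0117 with doublets kept. Il4i1 in cDC2 was -0.82 with clusters and -0.14 without cluster 14. Ass1 was 0.0344 in mature DCs with no filter, and in plasmacytoid DCs 0.0446 in DESeq2, 0.69 with clusters and -0.33 to 0.18 without each library. Of 333 single-gene values under alternatives, 257 kept direction and side of the threshold. Some settings repeat the same fit, so this count is not a measure of robustness. In neutrophils and mature DCs the higher-total libraries are those of the main fit. In macrophages the libraries with at least 50 cells are the higher-total ones. Genes below the filter or without an adjusted p in a setting are not among the 333.

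Same-numbered libraries correlated at -0.17, -0.43 and 0.33 in macrophages and 0.19, -0.14 and 0.11 in monocytes, which does not show a pairing by number. In macrophages BrM 2 correlated with MFP 3 at 0.49 and BrM 1 with MFP 2 at 0.40, pairs of the same library kind. The check therefore cannot decide whether the numbers pair the samples. In neutrophils and mature DCs, leaving out a library would leave 1 against 1 or no MFP library, so these settings, the replicate block and the lower-total libraries gave no value there. The settings on cluster 14 and on the cell with the most UMIs were chosen after seeing the data.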
